A study of Mus musculus with 6 samples.

Results

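The Wnt group studied here holds 4 ligands (Wnt4, Wnt5a, Wnt7b and Wnt10a), the secreted antagonist Sfrp1, the target gene Axin2, the R-spondin receptors Lgr4 and Lgr5, and the transcription factors Tcf7 and Lef1. Members were chosen by name, with earlier results of these data known. Each was represented by the probe set annotated to its symbol alone, taking the probe set with the highest mean over 6 arrays where a gene had several. Of the 10 members 9 had such a probe set, among 19937 genes in all, and Tcf7 is not analysed here.

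RNA came from mammary epithelial organoids of age-matched female FVB mice that carry an inducible knockout of Erbb3 (ErbB3 DOX-KO), which encodes a partner of ErbB2 in growth factor signalling. Both groups carry the allele. The control cultures received no doxycycline and the DOX cultures received 5 µM of it for the 14 days in growth factor-reduced Matrigel, with 3 arrays in each group. The age of the mice and the promoter and cell type that drive the knockout are not given in the labels. All arrays are of the knockout genotype, so the drug itself and the induced knockout cannot be told apart. The replicates are described as biological, but no label says whether each came from its own mouse, and p-values measure the spread between these cultures. In whole organoids, fewer cells of a type and less RNA per cell cannot be told apart.

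Wnt proteins are secreted signals that bind Frizzled receptors together with the co-receptors Lrp5 and Lrp6. In the canonical branch this stops the destruction of beta-catenin, which then works with factors of the TCF/LEF family to switch on target genes such as Axin2, itself a brake on the pathway. R-spondins acting on Lgr receptors strengthen the signal, and Sfrp proteins bind Wnts outside the cell. In the mammary gland Wnt4 acts downstream of progesterone in side branching, and Wnt-responsive cells are found mainly in the basal layer.

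Erbb3 did not pass as changed in either fit, and was below the control range on 1 of 3 DOX arrays, DOX replicate 2, and above it on the other two. Its values were 9.78, 9.71 and 9.69 in control replicates 1 to 3 and 10.36, 9.31 and 9.82 in DOX replicates 1 to 3. On DOX replicate 2 Erbb3 stood at −0.42 from the control mean. Genes in the highest of 10 equal steps of control level, to which it belongs, stood lower there, at −1.59 in the median. Which exons the knockout removes is not stated, so these values neither bear out nor contradict the knockout, and DOX arrays are those labelled so. Array DOX replicate 2 stood apart. Its correlation with the other arrays across genes was at most 0.865, where the remaining 5 arrays correlated at 0.963 or more. Its values were compressed, so that a gene with a high control value read lower on it and a gene with a low control value read higher. The members are therefore given from all 6 arrays (the 6-array fit) and without DOX replicate 2 (the 5-array fit). Of 7 luminal markers 0 passed in the 6-array limma fit (1 higher and 2 lower at an unadjusted p under 0.05). Over all genes 0.12% passed as higher and 2.26% as lower in that fit, and 12.3% and 14.3% in the 5-array fit. The marker counts here are thus too small to tell about cell types. Over 5 arrays Krt8 and Krt18 passed as lower (−0.74 and −0.64) and Cldn4 as higher (1.88), while Krt19, Epcam, Cdh1 and Cldn3 did not pass. Krt8 and Krt18 read 12.49 to 12.69 in control arrays and 10.97 to 12.06 in DOX arrays. The mean over 9 basal markers was 5.44 to 5.59 in control arrays and 5.08 to 5.70 in DOX arrays. Of these Oxtr passed as lower in both fits and Krt14 in the 5-array fit, and the other 7 did not pass in either. Among those 7, Myh11 read higher on all DOX arrays (0.59 in the 6-array fit and 0.24 in the 5-array fit), and Trp63 differed by 0.53 and 0.16. Of 24 markers of fibroblasts, adipocytes, endothelium, leukocytes and T cells, 0 passed in limma with all arrays (1 higher at an unadjusted p under 0.05). Without DOX replicate 2 the leukocyte genes Ptprc and Cd68 passed as higher. The scale has no zero and no detection calls, so no marker could be read as absent.

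Sfrp1 was the member that fell, by 3.14-fold in the 6-array fit and 2.73-fold in the 5-array fit. Wnt4 rose by 1.36-fold only in the 5-array fit, and its other probe set did not rise. The remaining 7 measured members, Axin2 and Lgr4 among them, did not pass the test in either fit. In the 6-array fit 0 of 9 members were higher and 1 was lower by limma (adjusted p under 0.05), where 0.12% and 2.26% of all genes were called higher and lower (1 member higher and 1 lower at an unadjusted p under 0.05). Of all calls in the 6-array fit 5.06% were higher, a share that was 22.8% after quantile normalization and 36.4% after cyclic loess. In the 5-array fit, 1 was higher and 1 lower, against 12.3% and 14.3% of all genes. The 3 DOX arrays lay wholly above the control arrays for Wnt4 and Axin2 and wholly below them for Sfrp1 and Lgr4. Among all genes 11.7% lay wholly above and 20.3% wholly below. In the remaining 5 arrays the same 4 members did not overlap, with 25.4% of all genes wholly above and 26.2% wholly below, so a lack of overlap in that comparison is common. The median difference of the 9 members came to 0.04 over 6 arrays and −0.11 over 5, beside 0.02 and 0.01 for all genes.

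**Figure D1:**
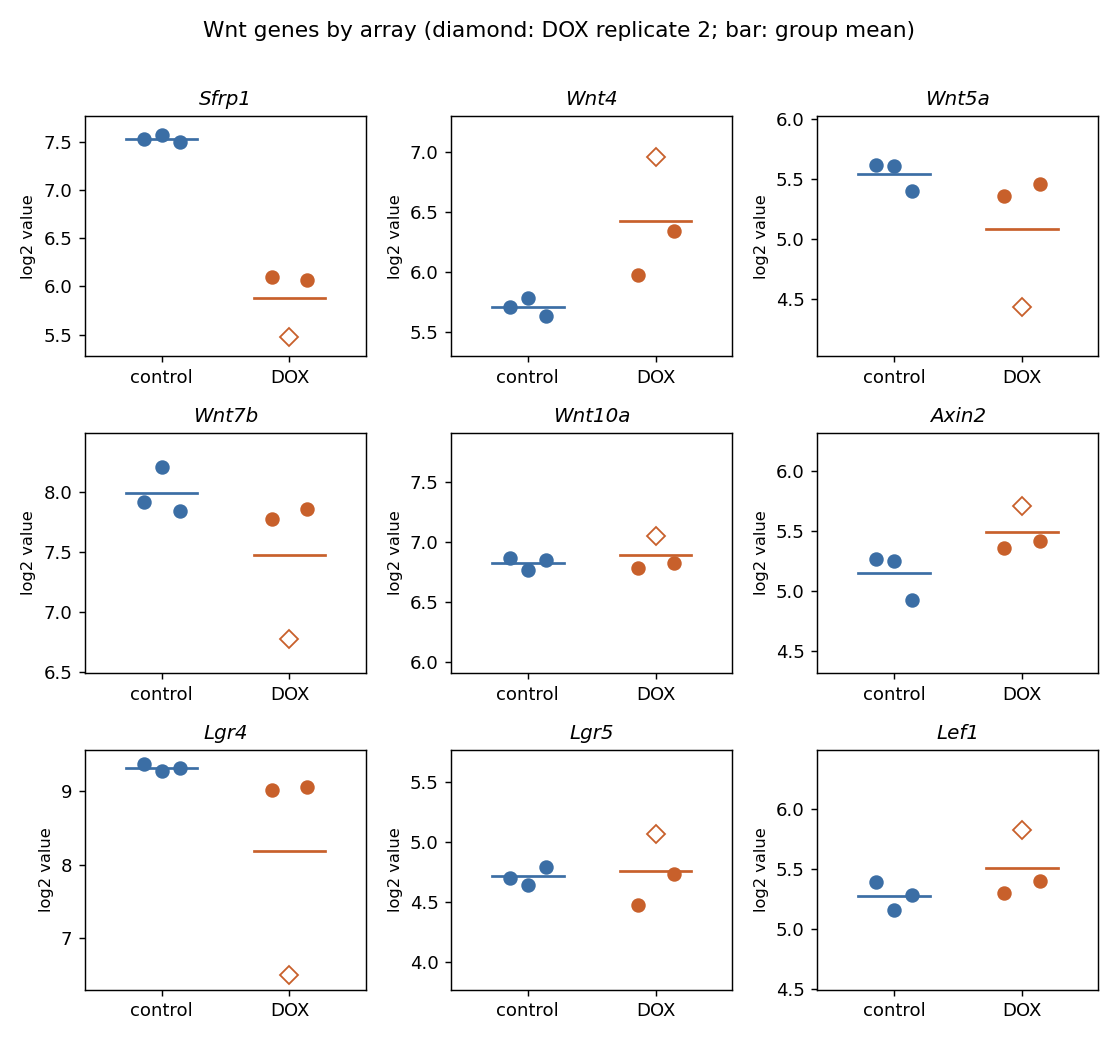
Log2 value of each of the 9 measured members on the 6 arrays, with a bar at the group mean and an open diamond for DOX replicate 2. Each panel has its own axis, spanning at least 2 log2 units. Sfrp1 lies at 7.50 to 7.56 in control arrays and 5.48 to 6.10 in DOX arrays, and DOX replicate 2 is the array farthest from the others for most members.

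Start-site windows were looked up for all 10 members, and are shown for the members with an entry whose arrays did not overlap between the groups. Of the 10 members 5 had at least 1 window in the RefSeq table (GRCm38.p6), running from 250 bases before to 50 bases after a start site: Wnt4, Axin2, Lgr4, Lef1 and Tcf7. The windows were searched on both strands for CTTTGAT and CTTTGTT, which are forms of the site that TCF/LEF proteins bind. Their reverse complements are ATCAAAG and AACAAAG. Neither was found in any window of the 5 members, and 10.6% of all genes in the table had a match. Bases outside the windows were not searched, so sites there are not excluded. All 4 sequences below run 5′ to 3′ along the gene's strand. They are Axin2 (chr11:108920099-108920398, plus strand), Wnt4 (chr4:137277385-137277684, plus strand), Lgr4 (chr2:109917397-109917696, plus strand) and the window of Wnt5b (chr6:119449337-119449636, minus strand) in which CTTTGAT was found, printed in capitals. Wnt5b is shown as the ligand outside the group that passed in the 5-array fit.
Axin2: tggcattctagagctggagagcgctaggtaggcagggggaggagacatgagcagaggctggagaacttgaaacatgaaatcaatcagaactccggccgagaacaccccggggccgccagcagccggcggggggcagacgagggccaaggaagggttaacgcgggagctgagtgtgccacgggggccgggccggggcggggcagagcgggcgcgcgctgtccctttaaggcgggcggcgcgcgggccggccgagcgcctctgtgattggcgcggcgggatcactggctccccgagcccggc
Wnt4: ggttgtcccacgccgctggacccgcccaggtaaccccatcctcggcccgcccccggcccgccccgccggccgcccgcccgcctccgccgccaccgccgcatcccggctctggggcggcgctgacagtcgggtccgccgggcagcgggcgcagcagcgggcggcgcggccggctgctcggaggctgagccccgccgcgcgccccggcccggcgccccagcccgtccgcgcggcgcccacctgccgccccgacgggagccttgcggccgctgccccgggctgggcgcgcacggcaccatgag
Lgr4: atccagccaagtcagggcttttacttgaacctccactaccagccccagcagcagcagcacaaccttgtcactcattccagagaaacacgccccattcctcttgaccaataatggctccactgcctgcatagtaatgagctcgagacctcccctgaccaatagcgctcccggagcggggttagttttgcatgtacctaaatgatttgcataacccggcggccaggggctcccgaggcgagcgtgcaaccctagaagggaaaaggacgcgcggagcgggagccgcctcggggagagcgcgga
Wnt5b: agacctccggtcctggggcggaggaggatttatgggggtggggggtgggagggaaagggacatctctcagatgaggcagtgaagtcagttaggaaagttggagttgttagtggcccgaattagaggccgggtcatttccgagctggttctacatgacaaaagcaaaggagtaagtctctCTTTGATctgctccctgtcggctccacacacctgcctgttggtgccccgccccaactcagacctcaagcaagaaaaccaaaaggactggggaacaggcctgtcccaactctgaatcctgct

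The match in the Wnt5b window starts at its base 180, and the other 2 windows of Wnt5b held none. Such a match is a description of letters and not of a bound site. It is also common, since 9.33% of 32851 windows of this length held at least 1. The 3 members' windows differ in composition. G and C make up 84.3% of the Wnt4 window, which holds 51 CG pairs, 70.0% of the Axin2 window with 31, and 58.3% of the Lgr4 window with 18.

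Sfrp1 encodes a secreted protein that binds Wnts and keeps them from their receptors. Its single probe set read 7.53, 7.56 and 7.50 in control replicates 1 to 3 and 6.10, 5.48 and 6.07 in DOX replicates 1 to 3. Every DOX array was below every control array, and DOX replicates 1 and 3 were nearly equal. The means were 7.53 ± 0.03 and 5.88 ± 0.35 (SD, n = 3 each), and Sfrp1 fell by 1.65 on the log2 scale (95% confidence interval −2.18 to −1.12, limma adjusted p = 0.0171). In the 5-array fit the difference was −1.45 (95% confidence interval −1.69 to −1.21, limma adjusted p = 3.50e-06). In the 6-array fit the call was lost when any 1 control replicate (limma adjusted p = 0.136 to 0.141) or DOX replicate 3 (limma adjusted p = 0.0642) was left out, while the difference stayed between −1.67 and −1.63 without a control replicate. In the 5-array fit it passed in all 13 alternatives (highest limma adjusted p = 1.22e-04). Genes were also sorted into 10 equal steps by their control level. On DOX replicate 2 Sfrp1 stood at −2.05 from the control mean, and genes of its step at −1.06 in the median. On DOX replicates 1 and 3 it stood at −1.44 and −1.46, where the medians of that step were 0.04 and −0.10. Of 9 basal markers Oxtr and Krt14 passed as lower in the 5-array fit, where 14.3% of all genes did. The other 7 did not pass. The mean of the 9 was 5.08 and 5.22 on DOX replicates 1 and 3, below the controls, and 5.70 on DOX replicate 2, above them. Genes with a control level of 5.27 to 5.93, near that mean, stood at 0.30 on DOX replicate 2 in the median. The directions of Sfrp1 and of these markers on that compressed array therefore cannot be compared. The part of basal cells in the Sfrp1 difference was not tested.

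**Figure D2:**
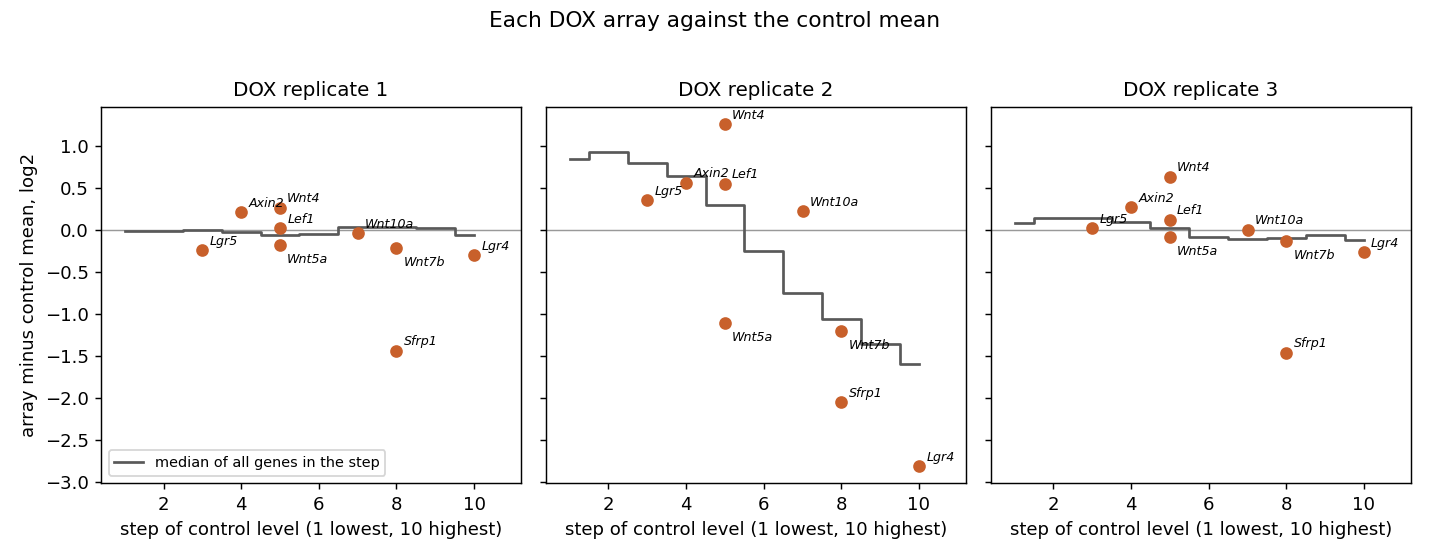
Difference of each DOX array from the control mean (log2) for the 9 members, placed by the step of control level to which the gene belongs (10 equal steps over all genes). The grey line is the median of all genes in the step. On DOX replicate 2 that median runs from 0.84 in the lowest step to −1.59 in the highest, and Sfrp1 lies below the line on all 3 arrays.

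Among all other genes, the 5 whose values over the 6 arrays followed those of Sfrp1 most closely were Pradc1, Cmc2, Cotl1, Ifit2 and Pdzrn3. The measure was the root mean square difference between log2 values centred on the control mean, and it was 0.04 for Pradc1 and 0.09 for Pdzrn3. None belongs to the pathway list used here, which holds only 97 of the 19937 genes.

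Wnt4 encodes a ligand of the gland that is known to follow progesterone. Its chosen probe set, 10509273, read 5.71, 5.78 and 5.64 in control replicates 1 to 3 and 5.98, 6.97 and 6.34 in DOX replicates 1 to 3. All DOX arrays were above all control arrays, and DOX replicate 2 was the highest. The means were 5.71 ± 0.07 and 6.43 ± 0.50 (SD, n = 3 each), which lie 0.72 apart (95% confidence interval 0.05 to 1.38, limma adjusted p = 0.32). In the 5-array fit it rose by 0.45 (SE 0.13, limma adjusted p = 0.028). That call was lost without control replicate 1, 2 or 3 (limma adjusted p = 0.0742, 0.0595 and 0.0885) and without DOX replicate 3, where the difference was 0.26 (limma adjusted p = 0.18) and the lone DOX array was assumed to vary like the controls. DOX replicate 3 was 0.63 above the control mean and DOX replicate 1 was 0.26 above it, where genes of its step stood at 0.02 and −0.06 in the median. On DOX replicate 2 this probe set stood at 1.25 from the control mean, and genes of its step at 0.30.

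The second probe set of Wnt4, 10509267, did not follow the first. It read 5.04, 5.42 and 5.33 in control arrays and 4.89, 4.73 and 5.24 in DOX arrays, so that the groups overlapped and the DOX mean was the lower. Fitted among all single-gene probe sets, its difference was −0.31 (SE 0.21, limma adjusted p = 0.493) in the 6-array fit and −0.20 (limma adjusted p = 0.378) in the 5-array fit. Averaging both probe sets gave 0.20 in the 6-array fit (limma adjusted p = 0.583) and 0.12 in the 5-array fit (limma adjusted p = 0.555). The direction of Wnt4 thus depended on the probe set. Markers of hormone-sensing luminal cells, which are known to make Wnt4, Esr1 and Pgr among them, gave 0 calls of 5 measured genes in either limma fit (0 at an unadjusted p under 0.05 in the 6-array fit, 1 lower in the 5-array fit). Their mean was 5.64 to 5.87 in control arrays and 5.64 to 5.79 in DOX arrays. Of all genes 0.12% passed as higher and 2.26% as lower in the 6-array fit, and 12.3% and 14.3% in the 5-array fit.

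**Figure D3:**
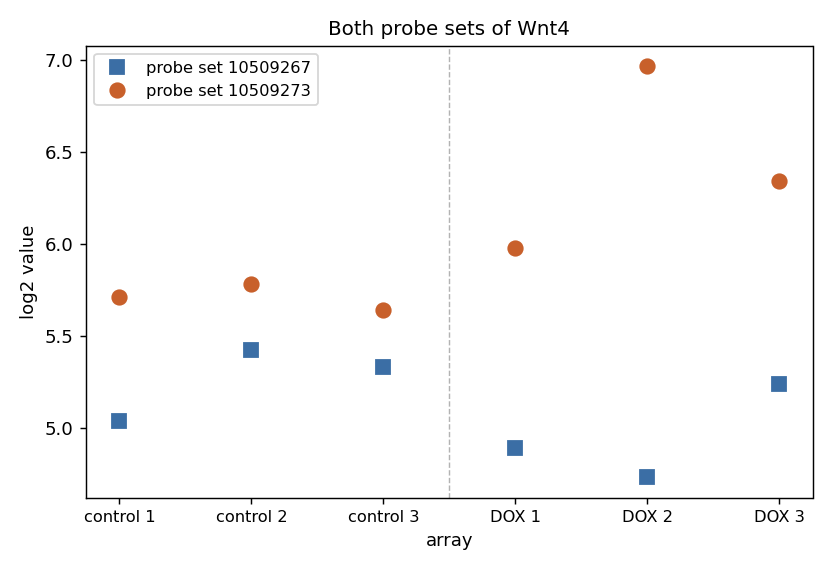
Log2 values of both Wnt4 probe sets on each of the 6 arrays, with control arrays left of the dashed line. Probe set 10509273 (circles) is higher on all DOX arrays, up to 6.97 on DOX replicate 2, while probe set 10509267 (squares) is lowest there at 4.73. Levels of different probe sets are not comparable with each other.

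The other ligands did not pass in either fit. Wnt5a, known mainly for signalling without beta-catenin, read 5.61, 5.60 and 5.39 in control arrays and 5.36, 4.43 and 5.45 in DOX arrays. The groups overlapped, and only DOX replicate 2 was far below, at −1.11 from the control mean where genes of its step stood at 0.30. Its difference was −0.46 (95% confidence interval −1.19 to 0.27, limma adjusted p = 0.482) in the 6-array fit and −0.13 (−0.39 to 0.13, limma adjusted p = 0.467) in the 5-array fit.

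Wnt7b, a ligand that is also known from luminal cells of the gland, read 7.92, 8.21 and 7.84 in control arrays and 7.78, 6.78 and 7.86 in DOX arrays. DOX replicate 3 lay within the control range, and DOX replicate 2 stood at −1.21 from the control mean, where genes of its step stood at −1.06. The difference was −0.52 (95% confidence interval −1.29 to 0.26, limma adjusted p = 0.47) in the 6-array fit and −0.17 (−0.46 to 0.12, limma adjusted p = 0.392) in the 5-array fit.

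Wnt10a gave the narrowest spread of the ligands. It read 6.87, 6.76 and 6.84 in control arrays and 6.78, 7.05 and 6.82 in DOX arrays, and DOX replicates 1 and 3 lay within the control range. On DOX replicate 2 it stood at 0.22 from the control mean, where genes of its step stood at −0.75. The difference was 0.06 (95% confidence interval −0.35 to 0.47, limma adjusted p = 0.849) in the 6-array fit. With all arrays it was 0.28 after quantile normalization and 0.32 after cyclic loess, and did not pass. In the 5-array fit it was −0.02 (−0.26 to 0.22, limma adjusted p = 0.912), and the sign turned with the scaling. Its neighbour in the RefSeq annotation, the ligand gene Wnt6, differed by −0.23 (limma adjusted p = 0.513) in the 6-array fit and by −0.30 (limma adjusted p = 0.0734) in the 5-array fit.

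Axin2 encodes a scaffold of the complex that destroys beta-catenin, and its RNA is widely used as a readout of canonical Wnt signalling. It read 5.27, 5.25 and 4.93 in control arrays and 5.36, 5.71 and 5.42 in DOX arrays. All DOX arrays were higher than all control arrays, but the nearest values of the groups, 5.27 and 5.36, were closer together than the lowest and highest control arrays, 4.93 and 5.27. The means were 5.15 ± 0.19 and 5.49 ± 0.19 (SD, n = 3 each). Neither the 6-array value of 0.35 (95% confidence interval −0.13 to 0.82, limma adjusted p = 0.449) passed, nor 0.24 (−0.05 to 0.53, limma adjusted p = 0.213) in the 5-array fit. Axin2 lay 0.56 above the control mean on DOX replicate 2, where genes of its step lay 0.63 above it, and 0.21 and 0.27 above it on DOX replicates 1 and 3. It kept its sign and missed the threshold in all alternatives tried in both fits, with differences between 0.10 and 0.42 when all arrays were the starting point.

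Lgr4 and Lgr5 encode receptors for R-spondins, and Lgr5 is best known as a marker of stem cells in the gut. Lgr4 read 9.36, 9.27 and 9.31 in control arrays and 9.02, 6.50 and 9.05 in DOX arrays. All DOX arrays were lower, and DOX replicate 2 by far the most, at −2.81 from the control mean where genes of its step stood at −1.59. The difference was −1.13 (95% confidence interval −2.74 to 0.49, limma adjusted p = 0.46) in the 6-array fit, and most of it came from that array. Without it the difference was −0.28 (95% confidence interval −0.52 to −0.04, limma adjusted p = 0.0805). In that fit Lgr4 passed in 4 of 13 alternatives, at differences of −0.35 to −0.28 and adjusted p down to 0.0334, so it stands at the edge of the threshold.

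Lgr5 read 4.70, 4.65 and 4.79 in control arrays and 4.47, 5.07 and 4.73 in DOX arrays. The groups overlapped, with the DOX arrays on both sides of the control range. The difference was 0.04 (95% confidence interval −0.46 to 0.55, limma adjusted p = 0.913) in the 6-array fit and −0.11 (−0.38 to 0.16, limma adjusted p = 0.553) in the 5-array fit. Its sign turned with the scaling in the 6-array fit, and in the 5-array fit it turned when DOX replicate 1 was left out.

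Lef1, a DNA-binding partner of beta-catenin that is itself a target of the pathway, read 5.39, 5.16 and 5.28 in control arrays and 5.30, 5.83 and 5.40 in DOX arrays. DOX replicate 1 lay within the control range, DOX replicate 3 just above it and DOX replicate 2 farther above it. The difference was 0.23 (95% confidence interval −0.27 to 0.73, limma adjusted p = 0.565) in the 6-array fit and 0.07 (−0.19 to 0.33, limma adjusted p = 0.714) in the 5-array fit. Lef1 is also expressed by T cells. The mean over 5 T cell markers was 4.49 to 4.68 in control arrays and 4.56 to 5.75 in DOX arrays, highest on DOX replicate 2. Genes with a control level of 4.28 to 4.78 stood at 0.79 from the control mean on that compressed array in the median. Lef1 stood at 0.55 there, and genes of its step at 0.30. The part of T cells in the value of Lef1 on that array was not tested.

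**Figure D4:**
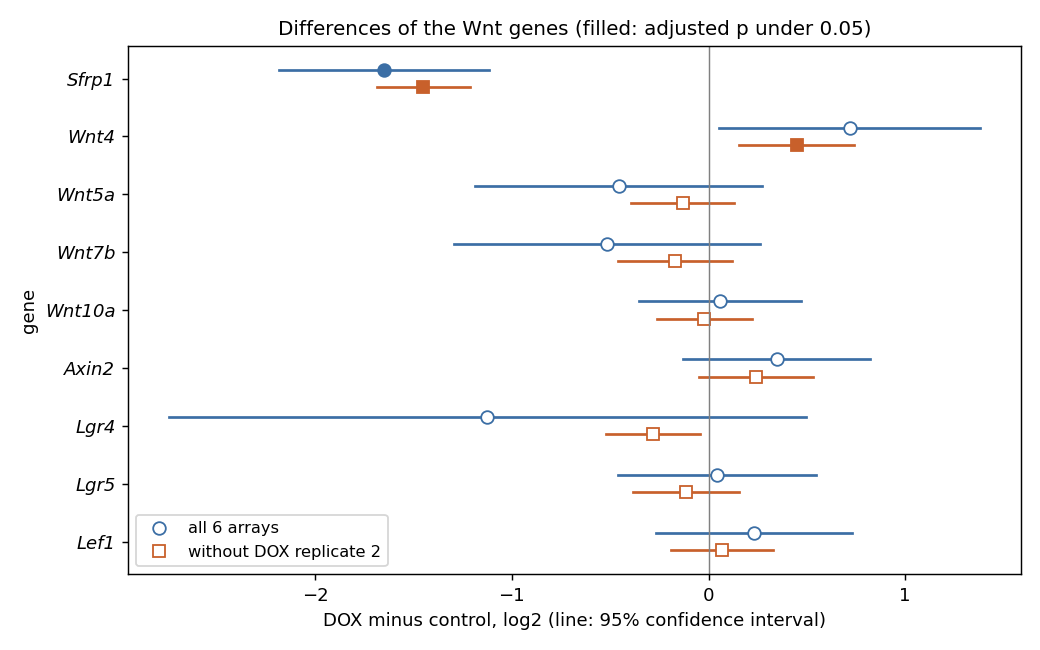
Difference between DOX and control (log2) of the 9 members with its 95% confidence interval, in the 6-array fit (circles) and in the 5-array fit (squares). Filled symbols passed at an adjusted p under 0.05. Sfrp1 passed in both fits, at −1.65 and −1.45, and Wnt4 passed in the 5-array fit at 0.45.

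The rest of the pathway was read from a list of 97 genes in 9 roles, all of them measured. In the 6-array fit 0 passed in limma (1 higher and 10 lower at an unadjusted p under 0.05). In the 5-array fit, 7 rose and 16 fell, and 74 did not pass. Those counts stand beside 12.3% of all genes higher and 14.3% lower in the same fit, so the list as a whole was called about as often as other genes were. The median difference of the list in that fit was −0.06, against 0.01 for all genes. The values that follow are from that fit, which has 2 DOX arrays, unless the 6-array fit is named. The counts by role are small, and whether a role as such moved in 1 direction was not tested.

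Among 15 other Wnt ligands, Wnt5b fell and none rose. Wnt5b, a close relative of Wnt5a, read 8.06, 8.18 and 8.12 in control arrays and 7.48, 7.34 and 7.40 in DOX arrays. The arrays of each group lay close together and far from the other group. On DOX replicate 2 Wnt5b stood at −0.78 from the control mean, where genes of its step stood lower, at −1.06. On DOX replicates 1 and 3 it stood at −0.64 and −0.72, and genes of its step at 0.04 and −0.10. Wnt5b fell by 0.68 (SE 0.11, limma adjusted p = 0.00103), and the difference in the 6-array fit was −0.71 (limma adjusted p = 0.1). Wnt10b, a ligand of early gland development, differed by −0.16 and Wnt11 by −0.07 (limma adjusted p = 0.512 and 0.711).

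Of 16 receptors and co-receptors 5 fell and none rose. The Frizzled receptor genes Fzd2 (−0.74), Fzd9 (−0.70) and Fzd6 (−0.41), Ptk7, a co-receptor of planar polarity (−0.54), and Lrp5 (−0.40) passed, with limma adjusted p of 0.00238, 0.00137, 0.0203, 0.00527 and 0.0198. Lrp6, the other co-receptor, differed by −0.27 (limma adjusted p = 0.12). These 5 differed in the 6-array fit, where none passed, by −1.10, −0.46, −0.89, −0.99 and −0.57, and Fzd9 read within the control range on DOX replicate 2. Fzd6 and Lrp5 passed in 9 of 13 alternatives and the other 3 in all that were run. Wls, which carries Wnt proteins to the cell surface, rose by 0.50 (SE 0.12, limma adjusted p = 0.0101) in the 5-array fit. In the 6-array fit its difference was −0.29, and DOX replicate 2 read 8.02 against 10.36 and 10.41 on the other DOX arrays.

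Of the other 7 genes of the R-spondin axis 3 fell. Lgr6, the third Lgr receptor, read 8.03, 8.11 and 8.01 in control arrays and 7.35, 6.58 and 7.42 in DOX arrays. Rnf43, an enzyme that removes Frizzled receptors from the cell surface, read 7.21, 7.27 and 7.40 in control arrays and 6.64, 6.15 and 6.56 in DOX arrays. For both genes every DOX array was below every control array. Lgr6 fell by 0.66 and Rnf43 by 0.69 (SE 0.11 each, limma adjusted p = 0.00112 and 0.00108), and the R-spondin gene Rspo3 fell by 0.60 (limma adjusted p = 0.00487), although on DOX replicate 2 it was above the control range. The differences of Lgr6, Rnf43 and Rspo3 in the 6-array fit were −0.93, −0.84 and −0.36, and none passed. Rspo1, another R-spondin gene, differed by −0.15 (limma adjusted p = 0.383). Of 13 other extracellular antagonists, the Dkk genes and the other Sfrp genes among them, 0 passed in either limma fit (0 at an unadjusted p under 0.05 in the 6-array fit, 1 lower in the 5-array fit).

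Inside the cell, 3 of 13 cytoplasmic genes rose and none fell. Ctnnb1, which encodes beta-catenin, read 11.18, 11.06 and 11.10 in control arrays and 11.85, 10.74 and 11.55 in DOX arrays. DOX replicates 1 and 3 were above the control range and DOX replicate 2 was below it. On DOX replicate 2 Ctnnb1 stood at −0.37 from the control mean, where genes of its step stood lower, at −1.59. Ctnnb1 rose by 0.59 (SE 0.12, limma adjusted p = 0.00497) in the 5-array fit. Gsk3b, a kinase that marks beta-catenin for destruction, rose by 0.60, and Apc, a scaffold of the same complex, by 0.53 (limma adjusted p = 0.00841 and 0.0156). In the 6-array fit the differences of these 3 genes were 0.27, 0.01 and 0.27, and none passed. Among the alternatives of the 5-array fit Gsk3b passed in 12 of 13 and Apc in 11 of 13 (highest limma adjusted p = 0.0528 and 0.0948).

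Of 12 nuclear partners 4 fell and none rose. Tle4, a co-repressor of TCF factors, fell by 0.91, Ctnnbip1, which blocks the binding of beta-catenin to TCF factors, by 0.75, and Tcf7l1, a TCF factor that mostly represses, by 0.46 (limma adjusted p = 5.85e-04, 0.00129 and 0.0155). Pygo1, a co-activator, fell by 0.33 (limma adjusted p = 0.0486) and passed in 5 of 12 alternatives, and Tcf7l1 passed in 11 of 13. Tle4, Ctnnbip1, Tcf7l1 and Pygo1 differed in the 6-array fit, where none passed, by −0.73, −0.92, −0.25 and −0.22. Tcf7l1 was above the control range on DOX replicate 2.

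Of 12 other known targets 2 fell and 1 rose. Nkd2, a feedback inhibitor in the cytoplasm, read 9.60, 9.69 and 9.59 in control arrays and 8.49, 7.56 and 8.88 in DOX arrays. Every DOX array was lower, and Nkd2 fell by 0.94 (SE 0.13, limma adjusted p = 4.10e-04) in the 5-array fit. Ccnd1, which encodes cyclin D1 and answers to many signals besides Wnt, fell by 0.74, and Myc, another shared target, rose by 0.54 (limma adjusted p = 0.00213 and 0.0103). Nkd2 differed in the 6-array fit, where none of the 3 passed, by −1.31, Ccnd1 by −1.50 and Myc by 0.07. Myc was below every control array on DOX replicate 2. It stood there at −0.88 from the control mean, where genes of its step stood lower, at −1.59. Among 7 planar polarity genes Celsr1 and Vangl1 rose by 0.58 and 0.40 and Celsr2 fell by 0.39 (limma adjusted p = 0.0103, 0.0398 and 0.039), the last 2 in 8 of 13 alternatives each. Their 6-array differences were 0.67, 0.06 and −0.35, and none passed.

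**Figure D5:**
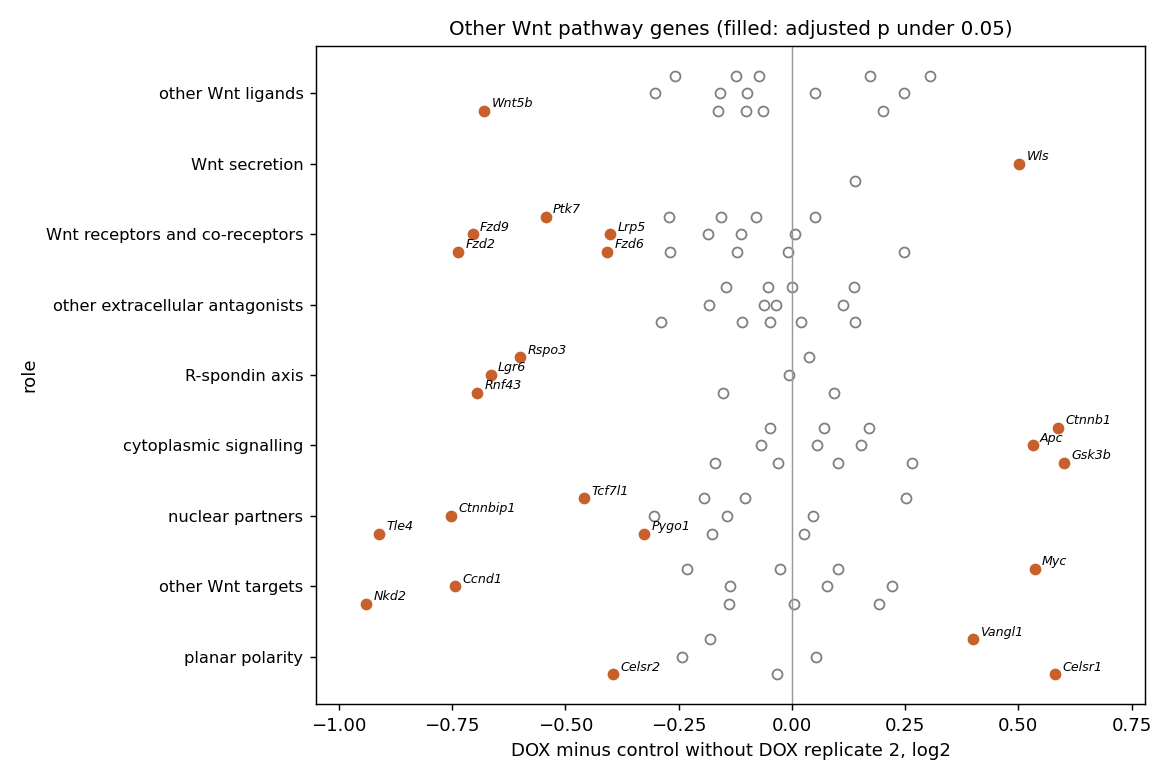
Difference between DOX and control in the 5-array fit (log2, horizontal) of 97 other Wnt pathway genes by role (vertical), with filled points for genes past an adjusted p of 0.05. Points are spread vertically within a role only to keep them apart. The 5 receptor genes, 3 R-spondin axis genes and 4 nuclear partners that passed lie left of 0, and the 3 cytoplasmic genes that passed lie right of it. Over all genes 12.3% passed as higher and 14.3% as lower in this fit.

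Of these 23 genes 14 had a start-site window in the RefSeq table, and 1 of them, Wnt5b, held CTTTGAT or CTTTGTT. Of all 68 listed pathway genes with a window 10 held either, and over all genes in the table the share was 10.6%.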

How the data were processed

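RNA of 6 organoid cultures was measured on 1-colour Affymetrix arrays, 1 array a culture. The authors deposited 1 log2 expression value for each probe set. RMA and affy appear in the submitters' processing notes, with no version. RMA gives no detection calls, so differences of genes near the lower end can be understated. The table was used as deposited. Its arrays did not share 1 distribution. The quartiles were 4.83, 5.86 and 6.90 on DOX replicate 2 and 4.10, 5.37 and 7.42 on control replicate 1.

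Of 34760 probe sets, 21640 carried 1 gene symbol in the platform annotation, 1321 several and 11799 none here. The highest mean over the 6 arrays chose a gene's probe set. The two-sided test was limma 3.58.1 (lmFit, then eBayes, without covariates) under R 4.3.3, over all 19937 genes, with Benjamini-Hochberg adjustment over all of them and a threshold of 0.05. The fit was repeated without DOX replicate 2. On simulated data, with 100 genes changed by each fold, the fit with all arrays recovered 0% of 2-fold changes and 34% of 4-fold changes. The fit without DOX replicate 2 recovered 85% and 97% of them. The simulated arrays varied like the controls, and the deviations of DOX replicate 2 were shuffled over genes, which removed their dependence on level. These shares are therefore not the power of the fits on the real arrays. A gene that did not pass with all arrays may still differ by 2-fold. Members, pathway list and marker lists were chosen with earlier results of these data known.

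Named were all members, list genes past the threshold with all arrays (there were none), up to 3 per role with the largest difference among those past it without DOX replicate 2, 8 genes fixed whatever their p, and the 5 genes most like Sfrp1. Fzd6, Pygo1 and single markers were added after their values were seen. Alternatives were a replicate block, fits without each array in turn, other normalizations, filters on low means, averaged probe sets (both Wnt4 probe sets are also given from a fit over all single-gene probe sets), a variance trend and array weights. Array weights were not run without DOX replicate 2. Start-site windows are RefSeq's.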

Additional observations from a re-analysis of the deposited data

How the results depend on the processing

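With all arrays, the count of members called lower was 1 and became 0 with the replicate block and ranged from 0 to 1 when single arrays were left out. The count called higher was 0, became 1 with array weights and ranged from 0 to 1. Of the other pathway genes none was called with all arrays, against 8 higher and 22 lower with array weights. The counts were 2 lower after quantile normalization and 8 lower after cyclic loess. When single arrays were left out they were 0 to 7 higher and 0 to 16 lower, the highest being those without DOX replicate 2. Without DOX replicate 2, the 1 member called higher became 0 with averaged probe sets and when any control array was also left out. The members called lower became 2 with quantile normalization and with arrays centred on their median. They also became 2 without the 50% of genes with the lowest means and with a robust variance trend, since Lgr4 passed in each of these settings.

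Signs turned for members that passed in no fit. With all arrays Wnt10a was −0.14 with arrays centred on their median, −0.013 with array weights and between −0.021 and 0.11 with an array left out. Lgr5 was −0.28 after quantile normalization, −0.16 with median centring, −0.24 after cyclic loess and −0.0303 with array weights. It lay between −0.11 and 0.19 with an array left out. Without DOX replicate 2 Wnt10a was 0.031 after quantile normalization, 0.035 after cyclic loess and between −0.052 and 0.000703 with a further array left out, Lgr5 lay between −0.24 and 0.019, and Lef1 was −0.012 after quantile normalization. The cause was not tested. Centring arrays on their medians moved the median difference of all genes from 0.02 to −0.18.

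Same-numbered control and DOX arrays share only a number. Their deviations from the group means correlated at 0.12, 0.19 and 0.09. With the replicate block the all-array calls over all genes went from 24 higher and 450 lower to 3 and 159, and Sfrp1 no longer passed, at an unchanged difference of −1.65 (limma adjusted p = 0.0825).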
